A study of Mus musculus with 12 samples.

Results

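The genes described here make proteins that turn mRNA into protein: the translation initiation and elongation factors, the enzymes that regulate them, and the aminoacyl-tRNA synthetases. They were chosen by gene symbol alone, as array spots with a single symbol of an Eif1 to Eif6 gene (Eif5a left out), an Eef1 or Eef2 gene, or an aminoacyl-tRNA synthetase. The rule found 82 genes on 93 spots, of 15081 named genes on the array. A total of 73 of the 82 genes could be tested, with a value on each of the 12 arrays, among 8707 named genes and 10762 features tested in all. By role, 31 of 35 initiation factor genes were tested, with all 7 elongation factor genes, 10 of 12 regulators, 16 of 18 cytosolic synthetases, 7 of 8 mitochondrial synthetases and 2 pseudogenes. Eif2s1 and Eif4g1 are not among the genes analysed here.

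Total RNA from mouse samples carrying the growth hormone receptor form NLS (presumably nuclear localization signal) was compared with RNA from samples carrying a form called WT (wild type), on 2-colour spotted arrays. The 4 groups were NLS 1GH, NLS 0GH, WT 1GH and WT 0GH, where GH is growth hormone, with 3 arrays each, lettered b, c and d. The labels give every sample human growth hormone at 100 ng/ml and describe a time course, but no unit goes with the 0 and the 1. The cell type, the meaning of the 10 after each receptor name and the way the receptor was introduced are not stated in the labels, nor is it said that the letters are separate cultures, so the p-values measure the spread between these samples only. Every array also carried embryonic RNA as a common reference. A value is read as the log2 ratio of the sample to that reference, with the median of the tested features of each array set to 0. On that reading, which assumes a log base of 2, a difference of 1 is 2-fold. The direction of the ratio is likely rather than stated: 46 of 49 embryo-tissue genes were on the side of the reference, and the opposite reading would turn every sign given here. Arrays held between 15939 and 19700 values each, and with so few arrays the SE of a translation gene's NLS minus WT difference ran from 0.24 (Eif4ebp2) to 1.38 (Iars). Arrays of letter b had the lowest mean correlation with the other arrays, 0.383 to 0.453, against 0.462 to 0.528 for letters c and d.

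Initiation is the step at which most control of translation is exerted. The factor eIF2 brings the initiator tRNA to the small ribosomal subunit, eIF1 and eIF1A watch over the choice of start codon, eIF3 holds the complex together, and the eIF4 factors bind the mRNA cap and unwind the leader. Elongation factor eEF1A then delivers charged tRNAs and eEF2 moves the ribosome along. Synthetases attach each amino acid to its tRNA, with separate enzymes for most amino acids in the cytosol and in mitochondria. Stress kinases that phosphorylate eIF2 slow initiation in general and raise translation of the transcription factor ATF4, which binds C/EBP-ATF response elements (CARE) near the start of many amino acid genes, synthetase genes among them. The factor Myc binds E-boxes and is known for driving genes of ribosome production and translation.

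The RefSeq promoter table (build GRCm38.p6) holds 32851 windows, each 250 bases before to 50 after an annotated start, and some genes have several. It matched 60 of the 82 genes, and a gene counted if any of its windows held the motif. Of the 11 cytosolic synthetase genes in it 5, 45.5%, held the CARE core TGATGNAA on either strand. The share over all 27025 genes of the table was 4.51%. It was 1 of 27 among initiation factor genes (Eif2s3x), 1 of 10 among regulators (Eef2k) and 0 of 7 among mitochondrial synthetases. The E-box CACGTG, which reads the same on both strands, was in 14 of the 60 genes (23.3%) and in 8.09% of all genes. The stretches below show the matches of the 5 synthetase genes and, for comparison, the E-box nearest the start of the cap-binding factor gene Eif4e. Each is written 5′ to 3′ on the strand of its gene, with the motif named for that gene, or its reverse complement, in capitals, and runs at most 30 bases past the start.
Yars: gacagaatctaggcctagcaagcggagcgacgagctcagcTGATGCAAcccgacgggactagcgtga
Iars: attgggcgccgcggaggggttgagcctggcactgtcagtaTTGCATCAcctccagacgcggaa
Tars: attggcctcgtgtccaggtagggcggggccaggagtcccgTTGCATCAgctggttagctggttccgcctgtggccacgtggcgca
Aars upstream: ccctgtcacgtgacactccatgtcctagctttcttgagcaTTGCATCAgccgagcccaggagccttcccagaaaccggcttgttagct
Aars at the start: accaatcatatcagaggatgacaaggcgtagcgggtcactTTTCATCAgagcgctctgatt
Gars: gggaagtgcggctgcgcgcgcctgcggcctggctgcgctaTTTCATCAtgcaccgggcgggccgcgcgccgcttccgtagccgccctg
Eif4e: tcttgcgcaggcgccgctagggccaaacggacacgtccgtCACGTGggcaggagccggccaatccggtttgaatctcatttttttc
The stretches lie at these positions: Yars at chr4:129189866-129189932, plus strand, Iars at chr13:49682097-49682159, plus strand, Tars at chr15:11399629-11399713, minus strand, the first Aars window at chr8:111033690-111033777, plus strand, the second Aars window at chr8:111033811-111033871, plus strand, Gars at chr6:55037931-55038018, plus strand and Eif4e at chr3:138527164-138527249, plus strand. In the Yars stretch the motif reads on the gene's own strand, and in the other 4 synthetase genes it is the reverse complement. The Tars and first Aars stretches also hold an E-box in lower case, apart from the CARE core. The Aars stretches lie inside the gene's span, chr8:111027778-111055569, and not at its outer end. The same holds for the Eef2k match, in the window chr7:120850939-120851238 of a gene spanning chr7:120842642-120907219. A match describes these letters and does not show binding. The NLS minus WT differences of the 5 genes with a CARE core were 1.42 for Yars, 1.85 for Iars, 0.66 for Aars, 0.62 for Tars and -0.13 for Gars. Those of the tested cytosolic synthetase genes whose window had no match were 0.69 for Qars, 0.60 for Eprs, -0.050 for Kars, -0.13 for Sars and -1.12 for Farsb, so the ranges overlapped.

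Between the receptor forms, most translation genes read higher in NLS samples by a small amount, and none passed the test across all features. Averaged over the GH numbers, 49 of 73 genes had a positive NLS minus WT difference, where 47.7% of all features did. The median difference was 0.23 on the log2 scale, against -0.030 over all features. By role the medians were 0.31 for initiation factors, 0.13 for elongation factors, 0.092 for regulators, 0.56 for cytosolic synthetases and 0.087 for mitochondrial synthetases. With Cy3 dye incorporation as a covariate the elongation median was -0.023, and without letter c those of regulators and mitochondrial synthetases were -0.17 and -0.021. The Cy3 value, in bases per dye, ran from 12.8 to 16 in NLS samples and from 14.2 to 19.2 in WT samples. The 19.2 belonged to letter c of WT 1GH, and no other sample exceeded 16. The covariate was thus unbalanced between the forms, and fits with it may take up part of the receptor difference. How much was not tested. Without centring the median of all features was 0.078 and that of initiation factors 0.41. In bulk RNA, fewer cells of a type and less RNA per cell cannot be told apart.

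The test was limma's moderated fit over all 12 arrays with Benjamini-Hochberg adjustment over 10762 features. In the receptor comparison 0 features passed an adjusted p of 0.05, and the lowest adjusted p was 0.157 over all features and 0.837 among translation genes. At an unadjusted p under 0.05, 3 translation genes were higher and 0 lower, beside 2.81% and 2.46% of all features. A total of 24 were higher in all 3 letters and 4 lower, where 15.3% and 16.3% of all features were. None of the 73 tested translation genes had NLS and WT arrays that did not overlap, in either direction, while 0.567% of all features lay wholly higher and 0.158% wholly lower in NLS samples. The letters did not contribute alike: 48 genes of 73 were above 0 in letter b, 59 in letter c and 37 in letter d, with medians of 0.17, 0.39 and 0.011. With the letter as a fixed replicate block, 6 translation genes were higher and 1 lower at an unadjusted p under 0.05, beside 4.03% and 3.9% of all features. With the letter as a random replicate block, 5 were higher and 0 lower, beside 3.74% and 3.48%. Eif6, Eprs and Eif4e3 passed with the fixed block and not the random one, and Yars with the random one and not the fixed. With either block 0 features passed after adjustment.

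**Figure D1:**
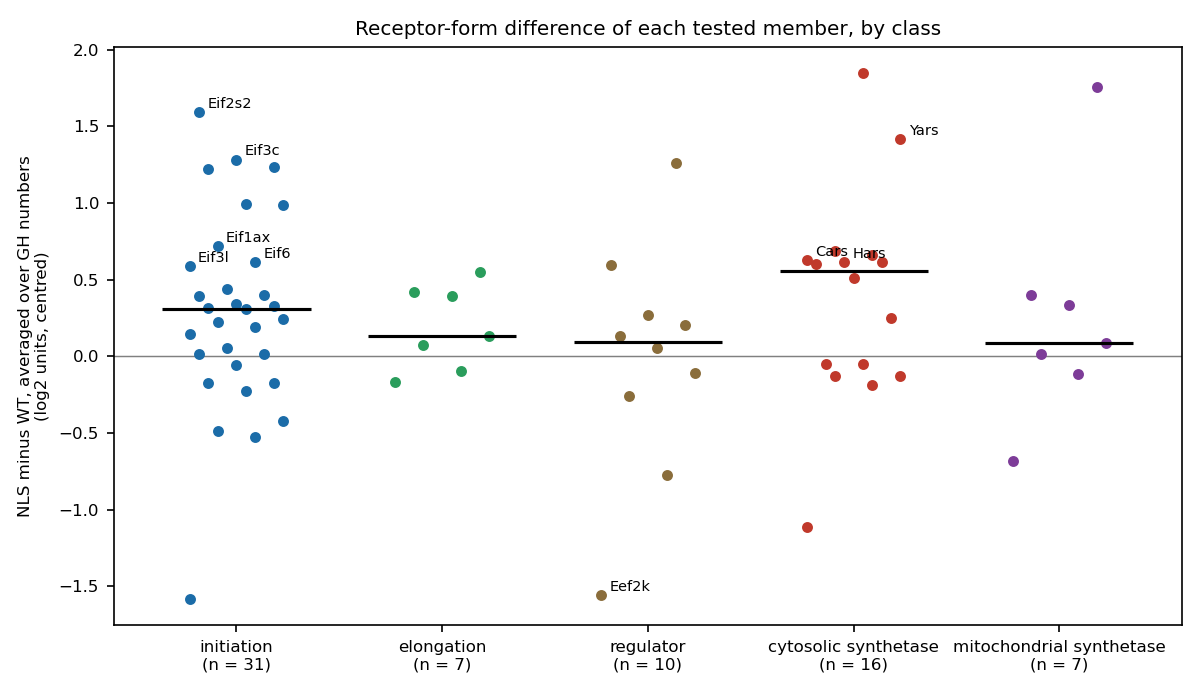
NLS minus WT difference of each tested translation gene, averaged over the GH numbers, on the log2 scale (vertical axis), by class; each point is a gene and the bar is the class median. The medians of initiation factors (0.31) and cytosolic synthetases (0.56) lie above those of the other classes, and single genes spread from -1.58 to 1.85.

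Among the initiation factors the difference with the smallest p was that of Eif2s2 (chr2:154871410-154892906 on GRCm38.p6), the beta subunit of the eIF2 complex that carries the initiator tRNA. Its values for letters b, c and d were 1.47, 1.94 and 0.79 on the NLS 1GH arrays and 1.64, 0.26 and 1.19 on the NLS 0GH arrays, against 0.12, -1.01 and -0.11 on the WT 1GH arrays and -1.15, 1.03 and -1.14 on the WT 0GH arrays. All 6 NLS arrays lay above 0 and 4 of the 6 WT arrays below it, with the WT 0GH array of letter c inside the NLS range. The NLS minus WT difference was 1.60 (SE 0.47), with adjusted p = 0.837 and a 95% interval from 0.55 to 2.65. It passed an unadjusted p of 0.05, but no longer did so without letter b (1.36), without letter d (1.58) or with dye incorporation as a covariate (1.31). The gamma subunit, which binds GTP, has an X-linked gene and a Y-linked copy, and both gave differences near 0 or below. Eif2s3x differed by -0.23 and Eif2s3y by -0.057, and the 2 Eif2s3x spots themselves gave 0.21 and -0.66.

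Eif1ax encodes eIF1A, which with eIF1 sets the ribosome scanning for a start codon. Its values were 1.20, 1.43 and 1.06 on the NLS 1GH arrays and 1.23, 1.61 and 1.67 on the NLS 0GH arrays, against 0.37, 1.18 and 0.46 on the WT 1GH arrays and 0.31, 1.05 and 0.52 on the WT 0GH arrays. Each NLS array exceeded its WT partner (same letter, same GH number), and the overlap came from the WT 1GH array of letter c. The difference was 0.72 (SE 0.26), with adjusted p = 0.862 and a 95% interval from 0.14 to 1.30. It too passed an unadjusted p of 0.05, without a block and with either replicate block. That was lost without letter b (0.64), without letter d (0.64), without centring (0.83) and with quantile normalization (0.81). The autosomal copy Eif1a differed by 0.40 (SE 0.41) in the same direction, and the eIF1 gene Eif1b by -0.18 (SE 0.46) in the other. Array probes of such close copies may share signal, and this was not tested.

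The eIF3 complex, the scaffold on which the other factors and the ribosome meet, was measured through 12 subunit genes. Their differences ran from -0.18 (Eif3e) to 1.28 (Eif3c), with 11 of 12 above 0 and a median of 0.27. Of all features 47.7% were above 0, with a median of -0.030. A total of 6 were higher in all 3 letters: Eif3c, Eif3d, Eif3f, Eif3h, Eif3i and Eif3l, where 15.3% of all features were. None passed an unadjusted p of 0.05 in the fit without a block. Eif3l had the smallest p of the 12, and its values were 1.48, 1.97 and 1.39 on the NLS 1GH arrays and 1.34, 2.02 and 2.09 on the NLS 0GH arrays, against 0.69, 1.20 and 1.58 on the WT 1GH arrays and 0.63, 1.60 and 1.05 on the WT 0GH arrays. The WT array of letter d at 1GH lay inside the NLS range, as did that of letter c at 0GH. The Eif3l difference was 0.59 (SE 0.29), past an unadjusted p of 0.05 with either replicate block and not without one. Eif3c had the larger mean, 1.28 (SE 0.68), with letter values of 1.25, 0.61 and 1.99. In Eif3b and Eif3m the letters went against each other: the letter values were -1.26, -0.74 and 2.16 for Eif3b and -1.50, 3.94 and -1.13 for Eif3m.

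**Figure D2:**
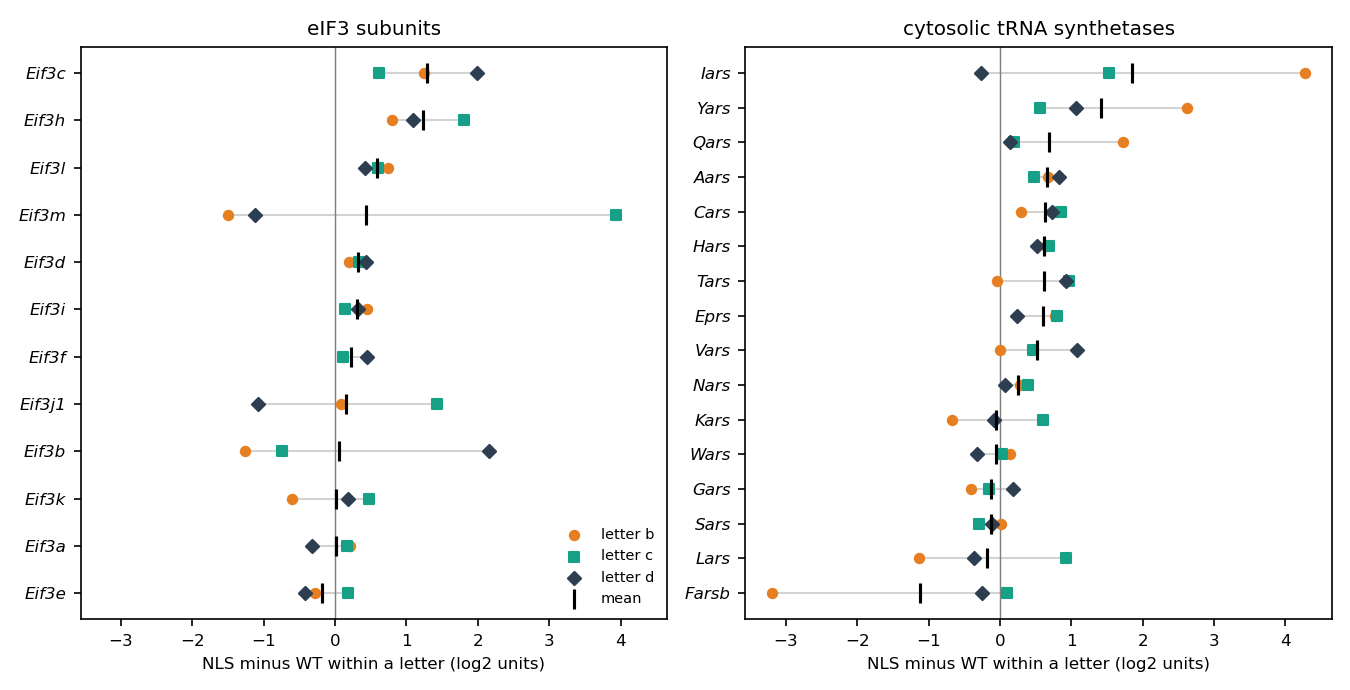
NLS minus WT difference within each letter (horizontal axis, log2 units) for the 12 eIF3 subunit genes and the 16 tested cytosolic synthetase genes, with genes down the page in order of their mean; points are letters and the vertical tick is the mean over letters. Letter values of Eif3d, Eif3f, Eif3i and Eif3l lie close together and above 0, while those of Eif3m, Iars and Farsb spread over several log2 units.

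The 2 tested cap-binding genes had negative differences in all 3 letters. Eif4e encodes the factor that recognises the mRNA cap, and its values were 3.46, 0.72 and 0.35 on the NLS 1GH arrays and 1.53, 1.70 and 1.92 on the NLS 0GH arrays, against 1.46, 1.69 and 1.33 on the WT 1GH arrays and 4.11, 2.72 and 1.27 on the WT 0GH arrays. A total of 10 arrays lay between 0.35 and 2.72, and the highest in each form belonged to letter b. The difference was -0.49 (SE 0.61), with a 95% interval from -1.84 to 0.87, and with dye incorporation as a covariate it was 0.11. Eif4e3, a relative of Eif4e that also binds caps, read -0.011, -0.51 and 1.79 on the NLS 1GH arrays and 3.31, 0.27 and 0.36 on the NLS 0GH arrays, against 4.54, -0.087 and 1.32 on the WT 1GH arrays and 4.55, 2.40 and 1.99 on the WT 0GH arrays. The 2 WT arrays of letter b stood highest, and the forms overlapped widely. Its difference was -1.58 (SE 0.91), the lowest of all translation genes, and -0.93 without letter b. It passed an unadjusted p of 0.05 with the letter as a fixed replicate block, but neither with a random one nor without a block.

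The 6 tested genes of the helicase and scaffold side of eIF4 had positive differences, none past an unadjusted p of 0.05. The helicase genes Eif4a1 and Eif4a2 differed by 1.22 (SE 1.14) and 0.99 (SE 1.25). The Eif4a2 value averages 2 spots, which gave 0.28 and 1.70. The spot with 1.70 read -8.44 on the WT 0GH array of letter b and 7.60 on that of letter d. Whether that spot reads the Eif4a2 mRNA was not checked. Eif4a1 and Eif4a2 are close copies, so their probes may share signal. Their relative Eif4a3, a core part of the exon junction complex, differed by 0.19. The helicase cofactor gene Eif4b differed by 0.39 (SE 0.27), and its letter values of 0.32, 0.17 and 0.68 were all above 0. The scaffold genes Eif4g2 and Eif4g3 differed by 0.34 and 0.33, with signs that changed between letters. Over the 8 tested eIF4 genes the median was 0.33, with 6 above 0, beside 47.7% of all features.

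Eif6 encodes a factor that keeps the large ribosomal subunit from joining too early. Its values were -0.035, 0.88 and 0.28 on the NLS 1GH arrays and -0.084, 0.79 and 0.94 on the NLS 0GH arrays, against -0.42, -0.50 and 0.17 on the WT 1GH arrays and -0.75, 0.27 and 0.33 on the WT 0GH arrays. All 6 matched pairs of NLS and WT arrays ran the same way, as they did for Eif1ax and the synthetase gene Cars and for no other translation gene. A positive sign in all 6 pairs was found in 3.49% of all features and a negative one, which 0 translation genes had, in 2.48%. The Eif6 difference was 0.61 (SE 0.33), and 0.25 with dye incorporation as a covariate. It passed an unadjusted p of 0.05 with the fixed replicate block, but neither with the random one nor without a block. The exchange factor eIF2B, which recharges eIF2 with GTP, was tested through Eif2b1 and Eif2b4 only, which differed by 0.25 and -0.42. Eif2d, a factor that can bring tRNA to the ribosome without GTP, read -0.29, 1.52 and 0.82 on the NLS 1GH arrays and 0.85, 1.34 and 1.43 on the NLS 0GH arrays, against -0.74, 2.09 and 1.03 on the WT 1GH arrays and 4.32, 1.31 and 0.81 on the WT 0GH arrays. The WT 0GH array of letter b, at 4.32, stood apart from the other 11, and the difference was -0.52 (SE 0.69).

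**Figure D3:**
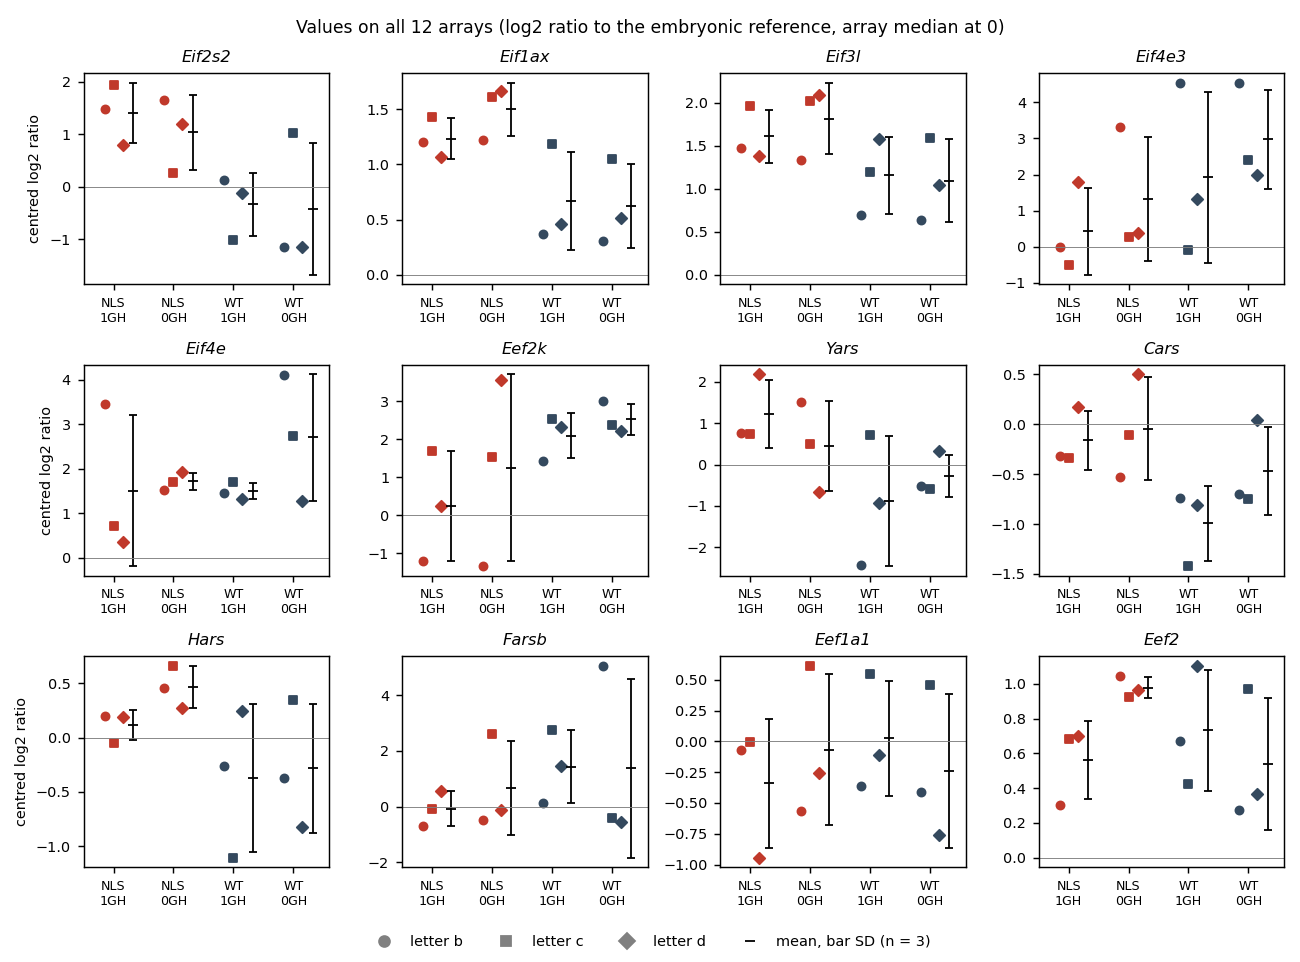
Values of 12 translation genes on all 12 arrays (vertical axis, log2 ratio to the embryonic reference with the array median at 0), with NLS groups left of WT groups in each panel; point shapes are letters and bars are group means with SD (n = 3). Eif1ax and Cars separate the forms within each letter, whereas the WT 0GH array of letter b stands far above the rest in Farsb and the WT 1GH array of letter b is the lowest in Yars.

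The elongation factors showed small differences in both directions, and none of the 7 passed an unadjusted p of 0.05. Eef1a1, which encodes the main factor that delivers charged tRNA, read -0.071, -0.0076 and -0.94 on the NLS 1GH arrays and -0.57, 0.61 and -0.26 on the NLS 0GH arrays, against -0.36, 0.55 and -0.11 on the WT 1GH arrays and -0.41, 0.45 and -0.76 on the WT 0GH arrays. The forms overlapped over most of their range, and the difference was -0.098 (SE 0.35), with a 95% interval from -0.88 to 0.68. Without centring it was 0.011. Eef2, the translocation factor, read 0.30, 0.68 and 0.70 on the NLS 1GH arrays and 1.04, 0.93 and 0.96 on the NLS 0GH arrays, against 0.67, 0.42 and 1.11 on the WT 1GH arrays and 0.28, 0.97 and 0.37 on the WT 0GH arrays. All 12 arrays were above 0 and the ranges overlapped, and the difference was 0.13 (SE 0.24), with an interval from -0.41 to 0.68, and -0.079 with dye incorporation as a covariate. Its 3 spots gave 0.34, 0.081 and -0.022.

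The exchange complex that recycles eEF1A has 3 subunit genes here. Eef1b2, the catalytic alpha subunit, read 0.098, 1.57 and 0.42 on the NLS 1GH arrays and 0.80, 1.68 and 1.15 on the NLS 0GH arrays, against -0.92, 0.22 and 0.89 on the WT 1GH arrays and -0.23, 1.27 and 1.19 on the WT 0GH arrays. Letters b and c gave positive differences and letter d a negative one, and the mean was 0.55 (SE 0.44). Eef1g, the gamma subunit, read 1.16, 1.27 and 0.53 on the NLS 1GH arrays and 0.88, 1.38 and 1.59 on the NLS 0GH arrays, against 0.39, 1.66 and 0.66 on the WT 1GH arrays and 0.72, 0.67 and 0.20 on the WT 0GH arrays. It was higher in NLS samples in all 3 letters, by 0.47, 0.16 and 0.63, although the WT 1GH array of letter c was the highest of all 12, and the mean was 0.42 (SE 0.31). Eef1d, the delta subunit, read 0.46, 0.33 and -0.72 on the NLS 1GH arrays and -0.033, 0.53 and 0.93 on the NLS 0GH arrays, against 0.15, 0.78 and 0.70 on the WT 1GH arrays and 0.099, 0.59 and 0.19 on the WT 0GH arrays, with a difference of -0.17 (SE 0.31). The NLS arrays of Eef1d spanned the whole WT range. Eef1e1, whose product sits in the multi-synthetase complex, read 1.29, 1.42 and 0.66 on the NLS 1GH arrays and 1.26, 1.31 and 0.60 on the NLS 0GH arrays, against 0.036, 0.72 and 0.37 on the WT 1GH arrays and 2.17, 0.50 and 0.38 on the WT 0GH arrays. The WT 0GH array of letter b was the highest of all 12 for Eef1e1, and the difference was 0.39 (SE 0.37). Only its symbol placed Eef1e1 in the elongation class.

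Among the regulators the smallest p belonged to Eef2k, and it did not pass 0.05. Eef2k encodes the kinase that inactivates eEF2 and so slows elongation. Its values were -1.19, 1.69 and 0.24 on the NLS 1GH arrays and -1.34, 1.52 and 3.56 on the NLS 0GH arrays, against 1.42, 2.52 and 2.33 on the WT 1GH arrays and 2.99, 2.36 and 2.21 on the WT 0GH arrays. The 6 WT arrays lay between 1.42 and 2.99, and 3 of the 6 NLS arrays lay below all of them, both NLS arrays of letter b under 0. The NLS 0GH array of letter d, at 3.56, exceeded every WT array. The difference was -1.56 (SE 0.78), with letter values of -3.47, -0.84 and -0.37 and a 95% interval from -3.30 to 0.19.

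The 4 kinases that phosphorylate eIF2 did not share a direction. Eif2ak1 (HRI, the haem-regulated kinase) read 0.65, 2.07 and 2.14 on the NLS 1GH arrays and 2.63, 1.60 and 2.23 on the NLS 0GH arrays, against -0.092, -0.53 and -1.09 on the WT 1GH arrays and 4.82, -0.052 and 0.71 on the WT 0GH arrays. All 3 WT 1GH arrays were below 0, and the WT 0GH array of letter b was the highest of all. The difference was 1.26 (SE 0.76). Eif2ak2 (PKR, activated by double-stranded RNA) read 1.24, 0.21 and -0.92 on the NLS 1GH arrays and -0.43, 0.090 and 0.51 on the NLS 0GH arrays, against 1.64, 0.35 and 0.87 on the WT 1GH arrays and 2.01, 0.53 and -0.043 on the WT 0GH arrays, with a difference of -0.78 (SE 0.48), and its 2 spots gave -1.38 and -0.17. The WT arrays of letter b were the highest for Eif2ak2. Eif2ak3 (PERK, the kinase of endoplasmic reticulum stress) read 0.22, 0.55 and -0.47 on the NLS 1GH arrays and 0.57, 1.47 and 1.32 on the NLS 0GH arrays, against 0.14, 0.52 and 1.02 on the WT 1GH arrays and -0.24, 0.78 and 0.23 on the WT 0GH arrays, with a difference of 0.20 (SE 0.32). The highest Eif2ak3 values were NLS 0GH arrays, of letters c and d. Eif2ak4 (GCN2, activated by uncharged tRNA) differed by 0.052 (SE 0.32). Eif4ebp2, a binding protein that keeps eIF4E from its scaffold, differed by 0.13 (SE 0.24), with letter values of 0.068, 0.14 and 0.18.

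The methyltransferases that modify eEF1A and eEF2 were also split. Eef1akmt1, which methylates a lysine of eEF1A, read 1.03, 1.02 and 0.66 on the NLS 1GH arrays and 3.65, 2.03 and 0.89 on the NLS 0GH arrays, against 2.69, 1.04 and 0.68 on the WT 1GH arrays and 1.23, 0.65 and -0.57 on the WT 0GH arrays. Its averaged difference was 0.59 (SE 0.55), with -0.56 at 1GH and 1.75 at 0GH. The interaction, given after the GH comparison, passed an unadjusted p of 0.05 in limma with either replicate block and not without one. Its adjusted p was 0.950 with the fixed block. Eef1aknmt, which also methylates eEF1A, read 0.91, 0.76 and -0.21 on the NLS 1GH arrays and 0.71, 0.83 and 1.38 on the NLS 0GH arrays, against 0.21, 0.082 and 0.88 on the WT 1GH arrays and 3.95, -0.0049 and 0.82 on the WT 0GH arrays. The WT 0GH array of letter b, at 3.95, stood above all others, the difference was -0.26 (SE 0.61), and without letter b it was 0.25. For Eef1akmt2 and Eef2kmt the receptor differences were -0.11 and 0.27, each positive in letters b and c and negative in letter d.

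The cytosolic synthetases had the highest class median, 0.56, with letter medians of 0.21, 0.52 and 0.16. A total of 10 of 16 genes were above 0, beside 47.7% of all features. With dye incorporation as a covariate the median was 0.27. A total of 7 were higher in all 3 letters (Aars, Cars, Eprs, Hars, Nars, Qars and Yars) and 0 lower in all, beside 15.3% and 16.3% of all features. Yars charges tyrosine, and its values were 0.76, 0.74 and 2.18 on the NLS 1GH arrays and 1.52, 0.50 and -0.66 on the NLS 0GH arrays, against -2.44, 0.71 and -0.93 on the WT 1GH arrays and -0.52, -0.60 and 0.32 on the WT 0GH arrays. Letter b at 1GH showed the widest gap between the forms, and at 0GH letter d ran the other way. The difference was 1.42 (SE 0.59), with adjusted p = 0.899 and a 95% interval from 0.11 to 2.73. It passed an unadjusted p of 0.05, but not without letter b (0.82), without letter d (1.59), without centring (1.53) or with the letter as a fixed block.

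Cars, the cysteine enzyme, read -0.32, -0.34 and 0.18 on the NLS 1GH arrays and -0.53, -0.11 and 0.50 on the NLS 0GH arrays, against -0.74, -1.42 and -0.81 on the WT 1GH arrays and -0.70, -0.75 and 0.037 on the WT 0GH arrays. Every NLS array exceeded its WT partner of the same letter and GH number. The Cars difference was 0.63 (SE 0.29), past an unadjusted p of 0.05 with either replicate block and not without one. Hars, the histidine enzyme, read 0.20, -0.046 and 0.19 on the NLS 1GH arrays and 0.46, 0.66 and 0.27 on the NLS 0GH arrays, against -0.26, -1.10 and 0.24 on the WT 1GH arrays and -0.37, 0.35 and -0.82 on the WT 0GH arrays. The NLS arrays of Hars ranged from -0.046 to 0.66, overlapping a WT range from -1.10 to 0.35 and the difference was 0.62 (SE 0.31). Eprs, the fused glutamate and proline enzyme, had a lowest, median and highest value of 0.51, 0.95 and 1.55 in NLS samples, against -0.23, 0.59 and 0.88 in WT samples, and a difference of 0.60 (SE 0.33), or 0.40 with dye incorporation as a covariate. It passed that p with the fixed replicate block, but neither with the random one nor without a block. A second Eprs spot, measured on 10 arrays and so not averaged in, gave -0.039. With a looser filter of at least 2 values in each group, which takes in that spot, the Eprs difference was 0.46. The other positive differences were 1.85 for Iars (isoleucine), 0.69 for Qars (glutamine), 0.66 for Aars (alanine), 0.62 for Tars (threonine), 0.51 for Vars (valine) and 0.25 for Nars (asparagine). In Iars letter b was far above the others, with letter values of 4.28, 1.53 and -0.27.

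The synthetases with negative differences were Farsb, Lars, Sars, Gars, Wars and Kars, and apart from Farsb they lay between -0.19 (Lars) and -0.050 (Kars). Farsb, the beta chain of the phenylalanine enzyme, read -0.72, -0.088 and 0.55 on the NLS 1GH arrays and -0.49, 2.62 and -0.14 on the NLS 0GH arrays, against 0.11, 2.75 and 1.46 on the WT 1GH arrays and 5.07, -0.42 and -0.55 on the WT 0GH arrays. The WT 0GH array of letter b, at 5.07, was far above the rest, the difference was -1.12 (SE 1.03), and the letter values were -3.19, 0.099 and -0.25. Sars, the serine enzyme, read 0.46, 0.079 and -0.32 on the NLS 1GH arrays and -0.12, 0.67 and 0.33 on the NLS 0GH arrays, against 0.28, 0.75 and 0.26 on the WT 1GH arrays and 0.034, 0.59 and -0.021 on the WT 0GH arrays. Its arrays of both forms covered nearly the same range, and the difference was -0.13 (SE 0.27). Lars, the leucine enzyme, read 0.91, 1.11 and -0.44 on the NLS 1GH arrays and 1.09, 1.12 and 0.81 on the NLS 0GH arrays, against 2.11, 0.36 and 0.56 on the WT 1GH arrays and 2.14, 0.013 and 0.52 on the WT 0GH arrays. The WT arrays of letter b were the highest, the letter values were -1.13, 0.93 and -0.36 and the difference was -0.19 (SE 0.48). It was 0.28 without letter b and 0.092 with quantile normalization.

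Mitochondrial synthetases had a median of 0.087, with letter medians of 0.11, 0.34 and -0.19. Of the 7 genes 5 were above 0, beside 47.7% of all features. Ears2, the glutamate enzyme, read 3.30, -0.74 and 1.65 on the NLS 1GH arrays and -3.49, -1.05 and 0.50 on the NLS 0GH arrays, against 1.06, -5.25 and -2.49 on the WT 1GH arrays and -0.79, -2.02 and -0.88 on the WT 0GH arrays. Arrays of the same group differed by several log2 units, and the difference was 1.76 (SE 1.13). Tars2, the threonine enzyme, read 1.72, 1.07 and 0.58 on the NLS 1GH arrays and 0.61, 1.37 and 0.89 on the NLS 0GH arrays, against 0.73, 0.74 and 0.34 on the WT 1GH arrays and 0.49, 0.43 and 1.10 on the WT 0GH arrays, with a difference of 0.40 (SE 0.29), above 0 in all 3 letters. Wars2, the tryptophan enzyme, read 0.64, 0.86 and 0.36 on the NLS 1GH arrays and 1.64, 0.76 and 0.87 on the NLS 0GH arrays, against 0.34, 0.24 and 0.59 on the WT 1GH arrays and 0.23, 0.71 and 1.02 on the WT 0GH arrays, with a difference of 0.33 (SE 0.27). All 12 arrays were above 0 for both Tars2 and Wars2. Vars2, the valine enzyme, read -1.29, -0.65 and -2.10 on the NLS 1GH arrays and -2.05, -1.76 and -2.33 on the NLS 0GH arrays, against 2.57, -3.09 and -1.84 on the WT 1GH arrays and 1.25, -3.18 and -1.81 on the WT 0GH arrays. The WT arrays of letter b were the only values above 0, the difference was -0.68 (SE 1.0), and without letter b it was 0.77. Sars2, the serine enzyme, read 0.27, 0.0061 and -0.93 on the NLS 1GH arrays and -0.73, 0.50 and -0.36 on the NLS 0GH arrays, against -0.34, 0.31 and 0.18 on the WT 1GH arrays and -0.21, 0.40 and -0.91 on the WT 0GH arrays, with a difference of -0.11 (SE 0.36). The forms overlapped over nearly the whole Sars2 range. The pseudogenes Eef1a1-ps1 and Eif2s3x-ps1 differed by -0.16 and -0.16, and their spots may share signal with the parent genes.

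The NLS minus WT difference was also read at each GH number. At 1GH 39 of 73 genes were above 0 with a median of 0.038, beside 46.8% and -0.052 over all features, and at 0GH 51 were above 0 with a median of 0.32, beside 49.7% and -0.0036. The order depended on the letter: letter medians were 0.30, 0.072 and -0.25 at 1GH and 0.096, 0.57 and 0.50 at 0GH, letter b against the other two. Without centring the class medians of the interaction, which is this gap, turn positive. For initiation factors the medians were 0.050 at 1GH and 0.40 at 0GH, for cytosolic synthetases 0.15 and 0.47, for elongation factors -0.062 and 0.21. A total of 14 translation genes were higher in all 3 letters at 1GH (13.8% of all features) and 20 at 0GH (15%). All 7 genes of the elongation class were above 0 at 0GH and 3 at 1GH. Eef1e1, which is in that class by its symbol, was among them at both, with 0.039 at 0GH and 0.75 at 1GH. At each GH number 3 translation genes were higher at an unadjusted p under 0.05 and 0 were lower, where the shares of all features were 2.03% and 1.47% at 1GH and 2.16% and 2.45% at 0GH. At 1GH they were Ears2 (3.63), Yars (2.12) and Eif2s2 (1.74), and at 0GH Vars (2.25), Eef1akmt1 (1.75) and Eif1ax (0.87). Eif2s2 was 1.46 at 0GH and Eif1ax 0.56 at 1GH, with interactions of 0.28 (SE 0.94) and -0.31 (SE 0.52), neither past an unadjusted p of 0.05. The interaction is given per gene after the GH comparison.

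The GH number itself was compared as 1GH minus 0GH, averaged over the receptor forms. The translation genes had a median of -0.12, with 24 of 73 above 0, where all features had a median of -0.0062 and 49.3% above 0. In letters b, c and d 38, 30 and 25 of the 73 were above 0, with medians of 0.013, -0.11 and -0.22. By role the medians were -0.19 for initiation factors, -0.10 for elongation factors, -0.15 for regulators, -0.14 for cytosolic synthetases and 0.049 for mitochondrial synthetases, the last -0.26 without letter b. In NLS samples 17 of 73 genes were above 0 with a median of -0.27, and in WT samples 43 were, with a median of 0.048. Of all features 47.3% were above 0 in NLS samples and 52.5% in WT samples, with medians of -0.039 and 0.035. By letter (b, c and d) the medians of the translation genes were 0.079, -0.17 and -0.60 in NLS samples. In WT samples they were 0.054, 0.14 and 0.18. At an unadjusted p under 0.05 a single gene was higher and a single gene lower in NLS samples, beside 1.71% and 1.21% of all features, and 1 was higher and 2 were lower in WT samples, beside 1.15% and 1.53%. Averaged over the forms, 0 of all features passed an adjusted p of 0.05. At an unadjusted p under 0.05 a single translation gene was lower and 0 were higher, beside 1.5% and 1.36% of all features. A total of 7 translation genes were higher in all 3 letters (13% of all features) and 11 lower (12.1%).

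**Figure D4:**
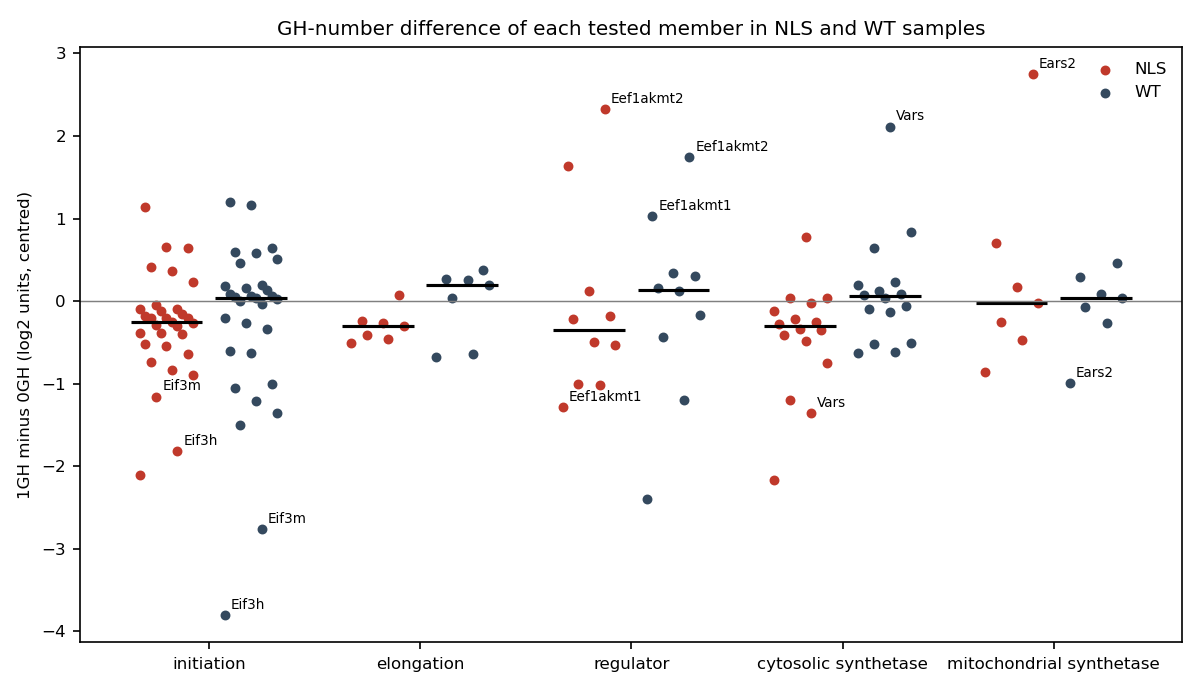
1GH minus 0GH difference of each tested translation gene (vertical axis, log2 units) in NLS samples and in WT samples, by class; each point is a gene and bars are class medians. Medians of initiation factors, elongation factors, regulators and cytosolic synthetases lie below 0 in NLS samples and slightly above 0 in WT samples.

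The single gene was Eif3h, a peripheral subunit of eIF3. Its values were -0.91, 0.67 and 0.32 on the NLS 1GH arrays, against 3.94, 0.15 and 1.44 on the NLS 0GH arrays, and -1.97, -3.98 and -0.66 on the WT 1GH arrays, against 3.41, 1.18 and 0.23 on the WT 0GH arrays. The WT 1GH arrays were all below 0 and the WT 0GH arrays all above it, while in NLS samples letter c ran the other way. The 1GH minus 0GH difference was -2.81 (SE 0.83), with adjusted p = 1.0 and letter values of -5.11, -2.32 and -1.0. Without letter b it was -1.66 and no longer past an unadjusted p of 0.05. Eif3m, another eIF3 subunit, read -1.42, 1.87 and -0.64 on the NLS 1GH arrays, against -0.46, 2.91 and 0.83 on the NLS 0GH arrays, and 0.87, -4.23 and -0.56 on the WT 1GH arrays, against 0.24, 1.14 and 3.0 on the WT 0GH arrays. The lowest value was the WT 1GH array of letter c, and the difference was -1.96 (SE 1.01). Over all 12 subunits of eIF3 the median was -0.12, with 4 above 0, beside 49.3% of all features.

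The 2 genes with the smallest p among positive 1GH minus 0GH differences were Eef2kmt and Eef1akmt2, and neither passed an unadjusted p of 0.05. The other tested methyltransferase genes, Eef1aknmt and Eef1akmt1, differed by -0.85 and -0.13. Eef2kmt, which methylates a lysine of eEF2, read -0.70, -1.75 and -1.19 on the NLS 1GH arrays, against -2.20, -1.98 and -4.38 on the NLS 0GH arrays, and -2.18, -2.77 and -1.45 on the WT 1GH arrays, against -2.52, -3.30 and -1.62 on the WT 0GH arrays. All 6 pairs of the same letter and form were higher at 1GH, which held for 1.54% of all features, and the difference was 0.99 (SE 0.50). Eef1akmt2 read -2.30, -0.70 and -1.63 on the NLS 1GH arrays, against -2.93, -1.0 and -7.70 on the NLS 0GH arrays, and -1.47, 0.10 and -3.81 on the WT 1GH arrays, against -4.50, -3.54 and -2.38 on the WT 0GH arrays. A single NLS 0GH array of letter d, at -7.70, was far below the others, and the difference was 2.04 (SE 1.10). Eef1b2 was lower at 1GH in all 6 pairs (1.42% of all features), with a difference of -0.60 (SE 0.44). The differences of genes named in the receptor comparison were 0.23 for Eif2s2, -0.11 for Eif1ax, 0.078 for Yars, -0.0031 for Eef1a1 and -0.11 for Eef2. The 95% interval for Eef2 ran from -0.66 to 0.43.

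Whether the GH difference depended on the receptor form was tested as an interaction, the 1GH minus 0GH difference in NLS samples minus that in WT samples. Translation genes had a median of -0.20, with 29 of 73 above 0, beside -0.063 and 47.3% over all features. This direction depended on the letter, with medians of 0.15, -0.30 and -0.82. Without centring, the median of all features was 0.52 instead of -0.063, and the class medians turned positive with it (0.54 for initiation factors, 0.30 for cytosolic synthetases and 0.38 for mitochondrial synthetases). Of all features 0 passed an adjusted p of 0.05. A single translation gene was lower at an unadjusted p under 0.05 and 0 were higher, beside 0.929% and 1.49% of all features, and with the letter as a block 3 were lower, beside 1.38% (fixed) and 1.32% (random).

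That gene was Vars, the cytosolic valine synthetase. Its values were 0.52, 2.12 and 2.35 on the NLS 1GH arrays, against 4.89, 1.57 and 2.61 on the NLS 0GH arrays, and 4.55, 1.77 and 2.34 on the WT 1GH arrays, against 0.87, 1.0 and 0.45 on the WT 0GH arrays. The WT 0GH arrays stayed between 0.45 and 1.0, the WT 1GH arrays lay above each of them, and in NLS samples letters b and d were lower at 1GH than at 0GH, letter b by the most. The interaction was -3.47 (SE 1.33), with adjusted p = 1.0 and letter values of -8.05, -0.23 and -2.15. It was no longer past an unadjusted p of 0.05 without letter b (-1.19), without letter d (-4.14) or without centring (-2.89). Eef1akmt1, whose values are given among the regulators, had lower values at 1GH than at 0GH in NLS samples in all 3 letters and higher ones in WT samples in all 3 letters. Its interaction was -2.32 (SE 1.10), and that of Eif2ak3 was -1.32 (SE 0.64). Both passed an unadjusted p of 0.05 with either replicate block and not without one. Eef1akmt1 was -1.44 without letter b, and Eif2ak3 was -0.69 without letter d and -0.74 without centring. The positive interactions with the smallest p were 3.75 (SE 2.26) for Ears2 and 2.15 (SE 1.61) for Eif3b. Eif3b read -0.12, -0.22 and 3.68 on the NLS 1GH arrays, against -1.23, -0.20 and 1.35 on the NLS 0GH arrays, and -0.059, 1.22 and -1.20 on the WT 1GH arrays, against 1.23, -0.16 and 1.92 on the WT 0GH arrays. The NLS arrays of letter d stood highest among the NLS arrays at both GH numbers.

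**Figure D5:**
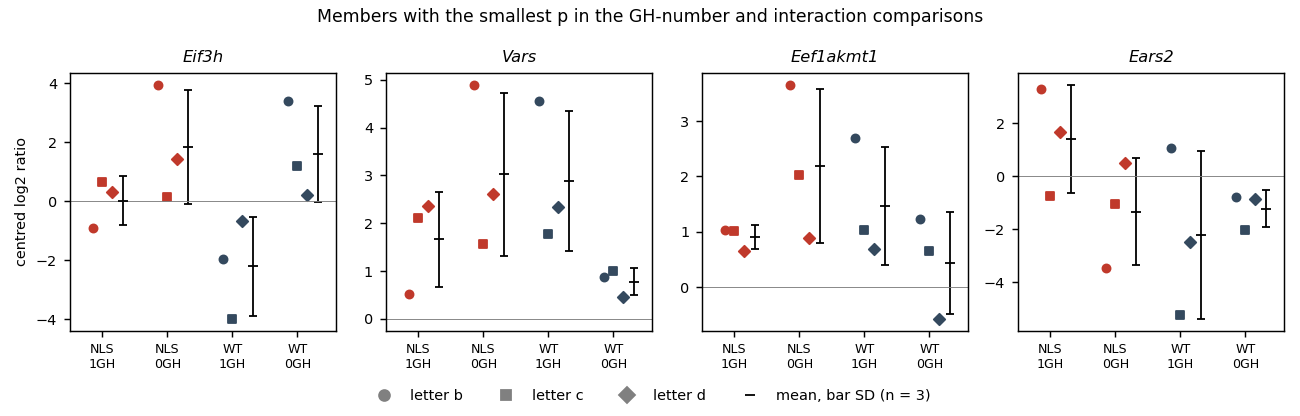
Values of Eif3h, Vars, Eef1akmt1 and Ears2 on all 12 arrays (vertical axis, log2 ratio to the embryonic reference with the array median at 0); point shapes are letters and bars are group means with SD (n = 3). Eef1akmt1 is lower at 1GH in NLS samples and higher at 1GH in WT samples in each letter, while in Vars and Eif3h arrays of letter b lie farthest apart.

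The genes left out of the test had a missing value on at least 1 array. Eif4ebp1, the mTOR-controlled inhibitor of eIF4E, was measured on 10 arrays. It read 0.63 and 0.92 in NLS 1GH and 2.90, 0.94 and 1.18 in NLS 0GH samples, against 0.36, -3.17 and -0.31 in WT 1GH and -2.86 and 0.50 in WT 0GH samples. All 5 NLS values were higher than all 5 WT values. Of the 854 spots on the array with 5 values in each form and at least 2 in each group, 0.703% lay wholly higher and 0.937% wholly lower in NLS samples. In the fit that asks for at least 2 values in each group the difference was 2.35 (SE 0.91), past an unadjusted p of 0.05 and with adjusted p = 0.854. In the same fit the differences were 1.84 for Farsa (SE 1.14), 1.33 for Rars (SE 0.92), -0.17 for Eif5 and -0.15 for Yars2, each measured on 11 arrays. The Eif5 value comes from 1 spot, and whether that spot reads the eIF5 mRNA was not checked. Farsa is the partner chain of Farsb, and the 2 genes had opposite signs, neither past an unadjusted p of 0.05. Farsa had no value on the WT 0GH array of letter b, where Farsb read 5.07. Eif2b2, Eif2b3, Eif4e2 and Eif4enif1 had values on 5 to 9 arrays and were not tested.

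Other genes of translation were described from lists. Of all features 47.7% had an NLS minus WT difference above 0. At an unadjusted p under 0.05, 2.81% of all features were higher in NLS samples and 2.46% lower. In the interaction 1.49% were higher and 0.929% lower at that p. Of the genes for termination and ribosome recycling 2 of 4 were tested. Abce1, the recycling ATPase, lay between 0.30 and 1.14 in NLS samples, against -0.85 and 0.53 in WT samples, with a difference of 0.69 (SE 0.30) past an unadjusted p of 0.05, and Gspt1, a release factor, differed by 0.53 (SE 0.31). Among 12 partners of the mRNA cap and the poly(A) tail 9 were tested and 8 were above 0, with a median of 0.45. Of these 9 a single gene was higher at an unadjusted p under 0.05 and 0 were lower. It was Larp1, which binds mRNAs of the translation machinery and differed by 0.95 (SE 0.37). Pabpc1, the main poly(A) binding protein, differed by 0.45 (SE 0.33). Of 9 tested kinases, phosphatases and targets of initiation control 3 were above 0, and the single gene past an unadjusted p of 0.05, Mknk2, a kinase of eIF4E, differed by -0.89 (SE 0.35). The mitochondrial factors had 1 of 4 above 0, and the ribosome recycling factor Mrrf had an interaction of -4.92 (SE 1.18), past an unadjusted p of 0.05. The scaffold protein gene Aimp1 and the editing enzyme gene Dtd1 differed by 0.11 (SE 0.37) and 2.50 (SE 1.64). Eif5a, which helps ribosomes past difficult sequences once it carries hypusine, differed by 1.65 (SE 0.33), past an unadjusted p of 0.05 and with adjusted p = 0.794. Its values lay between -0.17 and 1.36 in NLS samples, against -1.57 and -0.56 in WT samples. Such a wholly higher range in NLS samples was found in 0.567% of all features. The hypusine enzyme gene Dohh differed by 0.068 (SE 0.26).

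Genes of the amino acid response, which ATF4 is known to drive, did not share a direction. Of 20 genes listed 14 were tested, 7 above 0 and 7 below, with a median of 0.056. Phgdh, the first enzyme of serine synthesis, lay between 1.25 and 2.41 in NLS samples, against -0.91 and 0.31 in WT samples, without overlap. Of all features 0.567% lay wholly higher in NLS samples. The Phgdh difference was 2.21 (SE 0.31), with adjusted p = 0.157. Shmt2, the mitochondrial serine hydroxymethyltransferase, differed by 0.83 (SE 0.31) and Slc3a2, a chain of amino acid transporters, by 0.65 (SE 0.28). With Phgdh they were the 3 genes of the list past an unadjusted p of 0.05, all higher, beside 2.81% of all features. In the interaction Mthfd2 was higher at that p, by 1.54 (SE 0.66), beside 1.49% of all features. Asns, asparagine synthetase and a standard ATF4 target, differed by 0.65 (SE 0.42), Trib3 by 0.15 (SE 0.59) and Slc7a5 by -0.043 (SE 0.23). The synthetase genes with a CARE core and these genes were measured on the same arrays, so their values are set side by side only.

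Markers of other cell types were read in the same way, since the labels name no cell type. For B lymphoid genes 8 of 12 were tested and the median level per array lay between -0.21 and 2.13 in NLS samples, against -0.34 and 2.28 in WT samples. For erythroid and megakaryocyte genes, 5 of 13 tested, the ranges were 0.12 to 0.89 in NLS samples, against -0.30 to 1.09 in WT samples. That list was split: Gata1, Itga2b and Gp9 had positive means in every group, and Gp1bb and the alpha globin gene Hba-a1 negative ones. Hba-a1 lay between -3.95 and -1.99 in NLS samples, against -2.82 and -0.90 in WT samples. For fibroblast genes, 5 of 9 tested, the median level per array lay between -4.99 and -3.63 in NLS samples, against -5.58 and -3.68 in WT samples. Pdgfra went against that median, with values from -0.64 to 0.65 in NLS samples, against -2.17 to 1.13 in WT samples. Some of the list are also among the embryo-tissue genes used to read the direction. A single marker differed at an unadjusted p under 0.05 between the forms, Hba-a1, by -1.38 (SE 0.46), where 2.46% of all features were lower. Of the 5 tested genes of its list 2 were above 0 and 3 below. Myeloid, mast cell and T lymphoid lists had 4 of 12, 3 of 7 and 3 of 8 genes tested, with none past that p between the forms. In the interaction 2 B lymphoid genes were higher at that p, beside 1.49% of all features. What part a different cell makeup has in the translation gene values was not tested.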

How the data were processed

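Total RNA was measured on 12 spotted arrays with 2 channels, the sample in Cy3 and embryonic RNA in Cy5. The values are log2 ratios, which the authors adjusted by Lowess over 50% of the data with a floor of 200 in the control channel before they deposited them, per the series' design text; the log base was inferred from the values, and the numerator and scanner are not stated. All values were multiplied by -1, after 46 of 49 embryo-tissue genes lay above the array median as deposited. Spots of one gene were averaged. Arrays held 15939 to 19700 values, and their number limits the precision.

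Features with values on all 12 arrays (10762) were centred on each array's median and tested with limma 3.58.1 (R 4.3.3) on 4 groups, two-sided, with Benjamini-Hochberg adjustment; an adjusted p under 0.05 was the threshold. The fit was tested on simulated data. Gene names came from the platform annotation: 16955 probes had 1 symbol, 142 several and 5943 none here, and 16249 matched RefSeq by Entrez identifier. The members and lists were chosen with earlier results of these data known. Array values are printed for up to 3 genes a class with the smallest p in each direction of the receptor comparison, for 2 in each direction of the GH comparison and the interaction, and for Eif4e, Eif4ebp1, Eef1a1 and Eef2; Eif6 was added after its values were seen.

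Arrays of the same letter share a Cy5 dye incorporation in the labels, which points to a shared reference labelling. Their deviations from the group means correlated at 0.0433 to 0.263 (18 pairs), against -0.187 to 0.0660 between letters (36 pairs), so the letter was also fitted as a block. Alternatives were no centring, quantile normalization, the block, dye incorporation as a covariate, a looser filter, a scanner bound, single spots, a robust prior and leaving out each letter. No 2 arrays held identical values.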

Additional observations from a re-analysis of the deposited data

Results flagged for a closer look

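Eef1akmt1, a lysine methyltransferase of eEF1A, was the single translation gene whose 1GH minus 0GH difference ran one way in NLS samples and the opposite way in WT samples in all 3 letters. Of all 10762 features 364 (3.38%) did so. The difference between the forms, tested as an interaction in limma, was -2.32 on the log2 scale, lower in 3 of 3 letters (SE 1.10), past an unadjusted p of 0.05 with either replicate block and not without one, and was -1.44 without letter b.

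The same gene's NLS minus WT difference was negative at 1GH and positive at 0GH in all 3 letters. Opposite signs at the 2 GH numbers in all letters held for 265 features (2.46%). For letters b, c and d the differences were -1.65, -0.014 and -0.021 at 1GH, and 2.42, 1.38 and 1.46 at 0GH. Letters c and d thus lay near 0 at 1GH. The pattern is the same interaction of -2.32 seen from the other side, and adds no separate evidence.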

How the results depend on the processing

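No setting gave a feature past an adjusted p of 0.05 in limma, and the lowest adjusted p of the receptor comparison ran from 0.0787 (random block) to 1.0. Over all settings and comparisons, 11 class medians moved by more than the replicate spread and 169 did not, 10 counts of translation genes moved by over 1.5 times and 26 did not, and 10 values of single genes turned sign and 554 did not. In the receptor comparison the count at an unadjusted p under 0.05, 3 as reported, was 1 without centring, 7 with the fixed replicate block, 5 with the random replicate block and 1 to 4 leaving out a letter (1 without letter d). The initiation median was 0.41 without centring and 0.23 to 0.45 leaving out a letter (0.45 without d). With the dye covariate the medians were -0.023 for elongation factors and 0.27 for cytosolic synthetases, and with the looser filter the elongation median was 0.40. In the GH comparison the count, 1 as reported, was 2 with the dye covariate and 1 to 3 leaving out a letter (3 without d). The initiation median ran from -0.24 to -0.039 and the regulator median from -0.28 to -0.094. In the interaction the count, 1 as reported, was 0 without centring, 3 with either replicate block and 0 to 1 leaving out a letter (0 without d). The initiation median was 0.54 without centring and -0.45 to -0.045 leaving out a letter. The mitochondrial synthetase median was 0.38 without centring and -0.26 to 0.13 leaving out a letter. Single genes turned sign in the receptor comparison: Eef1a1 without centring (0.011), Lars with quantile normalization (0.092), and Eef1aknmt (0.051), Eef2 (-0.079) and Eif4e (0.11) with the dye covariate. Leaving out a letter, Eef1aknmt ran from -0.76 to 0.25, Eif4a2 from -0.48 to 2.0, Gars from -0.28 to 0.012, Lars from -0.74 to 0.28 and Vars2 from -1.99 to 0.77, each turned by leaving out letter b. The cause was not tested.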
